A study of Mus musculus with 4 samples.

Results

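The genes described here were 40 factors that build ribosomes in the nucleolus: core nucleolar proteins, the box C/D and box H/ACA small nucleolar ribonucleoproteins (snoRNPs), large subunit factors, small subunit processome and export factors, the RNA exosome, and the RNA polymerase I (Pol I) apparatus. They were named by their roles and matched by symbol, with no threshold on measured values, and all 40 were found among the 20714 symbols listed in both assays. Levels were measured in mouse blastocysts by RNA-seq of mRNA (2 replicate libraries) and by Ribo-seq of ribosome protected fragments (RPFs, 2 replicate libraries). All 4 libraries came from untreated wild-type (WT) hybrid embryos. The strain label reads C57BL/6N x PWK, whereas the collection protocol names C57BL/6J mothers aged 4 weeks and PWK/PhJ fathers. Embryos were taken at the 8-cell stage, grown to blastocysts in KSOM medium, and freed of the zona pellucida with acidic Tyrode's solution. Each library was made from whole embryos, so fewer cells of a type and less RNA per cell cannot be told apart. Nothing in the labels says that replicates came from separate cultures or animals, and p-values therefore measure the spread between these libraries, which may be technical.

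Ribosome production starts when Pol I, helped by upstream binding factor, copies the ribosomal DNA into a long precursor RNA. SnoRNPs then guide methylation and pseudouridylation of that precursor, the processome and the large subunit factors cut and fold it, and the exosome trims or destroys RNA from its 3′ end. Preimplantation embryos are known for building mature nucleoli from compact nucleolar precursor bodies after the zygotic genome becomes active.

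Coding sequences are shown for 5 genes, each for a feature described with it. In the following 3 genes, a stretch rich in GGN codons (glycine) lies in the coding sequence. Whether such a stretch bears on the RPF level was not tested. The stretch with the most GGN codons among any 30 consecutive codons is given, with GGN codons in capitals; bases are counted from the A of the start codon.

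Gar1 (bases 541 to 630): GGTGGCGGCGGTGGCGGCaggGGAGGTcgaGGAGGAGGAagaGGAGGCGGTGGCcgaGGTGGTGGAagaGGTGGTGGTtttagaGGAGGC
Fbl (bases 73 to 162): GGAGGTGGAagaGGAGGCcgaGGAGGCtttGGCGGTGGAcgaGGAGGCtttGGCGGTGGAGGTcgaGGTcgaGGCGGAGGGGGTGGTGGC
Ncl (bases 1936 to 2025): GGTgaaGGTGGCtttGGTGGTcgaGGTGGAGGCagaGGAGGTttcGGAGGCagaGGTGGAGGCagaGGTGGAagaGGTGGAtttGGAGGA

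The whole Nop10 coding sequence is shown because it is the shortest among the genes with an annotated coding length, with start and stop codons in capitals. A stretch of Npm1 is shown because most of its coding sequence occurs at several places in the genome; it is a window of 28 bases, about the size of a footprint, with the most places within this gene.

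Nop10 (bases 1 to 195): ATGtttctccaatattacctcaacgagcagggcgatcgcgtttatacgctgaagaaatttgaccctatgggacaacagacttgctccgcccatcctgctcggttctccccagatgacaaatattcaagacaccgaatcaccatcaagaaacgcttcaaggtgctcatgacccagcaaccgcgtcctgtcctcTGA
Npm1 (bases 79 to 106): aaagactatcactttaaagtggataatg

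Every gene was detected in every library. Levels are given as FPKM, fragments scaled by the length of the feature and the number of mapped fragments. For RPF the scaling raises short coding sequences, as described for Nop10 below, so RPF levels of short and long genes are not directly comparable. The median level was 20.9 and 23.9 FPKM in the mRNA replicates and 93.9 and 93.6 FPKM in the RPF replicates. At the bottom, Rrp1b, related to a yeast large subunit factor, had 3.66 and 3.46 FPKM of mRNA. At the top, Npm1, the abundant nucleolar chaperone nucleophosmin, had 835 and 919 FPKM of mRNA. In RPFs the lowest was Polr1a, the largest Pol I subunit, at 11.7 and 9.56 FPKM. The highest RPF level as deposited was that of Nop10, a small H/ACA snoRNP protein, at 2950 and 4180 FPKM. Per full coding length, Npm1 was above Nop10, at 1612 and 1873 FPKM, and so was Ncl, at 755 and 783 FPKM. The replicates lay close together for most genes: the median difference between replicates was 0.21 on the log2(FPKM+1) scale in mRNA and 0.23 in RPF, against 0.27 and 0.48 over all 8327 genes tested below. The largest gap in mRNA was that of Nop16, at 14.1 and 30.7 FPKM, and the largest in RPF was that of Polr1b, at 36.1 and 19.9 FPKM.

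**Figure D1:**
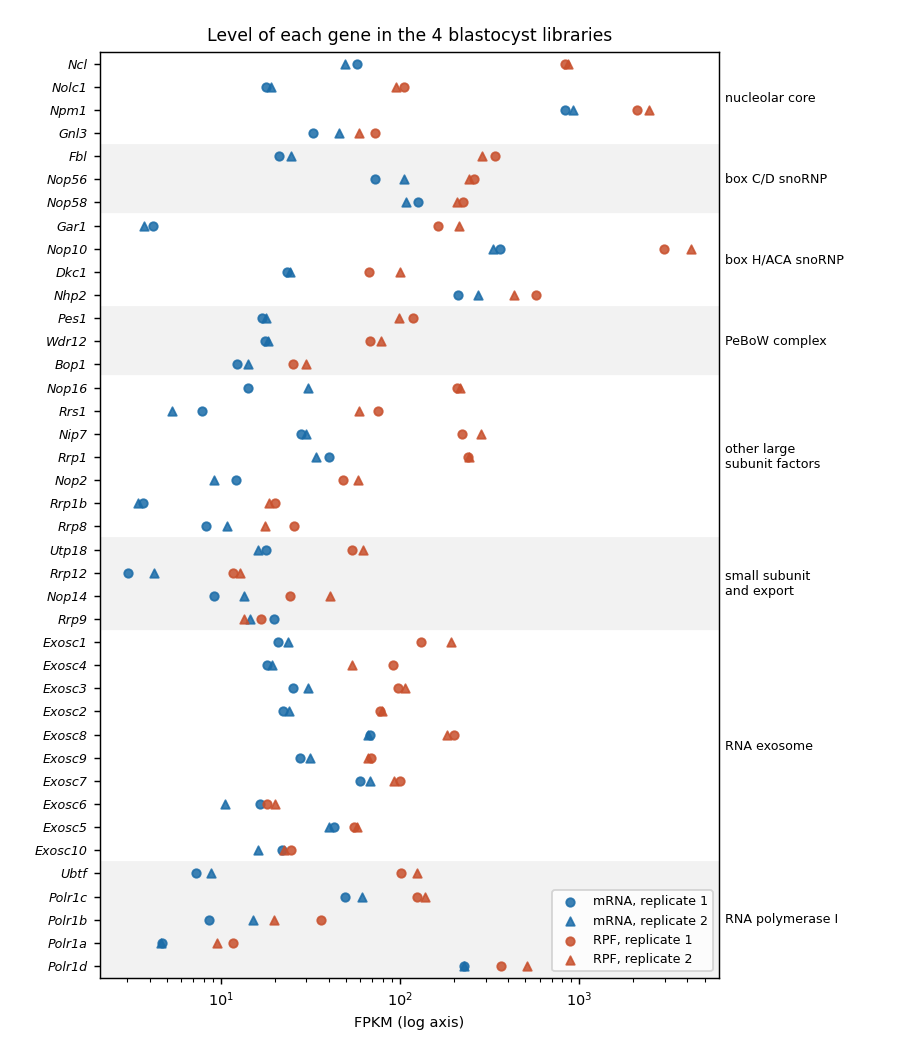
Level of each of the 40 genes in the 4 blastocyst libraries, in FPKM on a log axis, with genes grouped by role; blue points are mRNA, orange points are RPF, circles are replicate 1 and triangles are replicate 2. The RPF values lie above the mRNA values for every gene except Rrp9, whose assays overlap.

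Markers of the blastocyst cell types were checked. All 7 trophectoderm markers and all 4 inner cell mass markers were above 0 in every library, with summed levels of 2824 to 5929 FPKM and 57.7 to 815 FPKM, respectively. Of the inner cell mass markers, Sox2 (0.89 and 0.68 FPKM) and Fgf4 (0.52 and 0.34 FPKM) were low in mRNA. Of the primitive endoderm markers, 2 of 4 (Gata6 and Pdgfra) were above 0 in every library, with sums of 9.34 to 154 FPKM. Markers of oocytes, of granulosa and cumulus cells and of blood summed to 0 to 3.31 FPKM. Listed at 0 in all libraries were 5 of 7, 6 of 7 and 3 of 5 of them, respectively. Cd68, a blood marker, had 3.10 and 2.18 FPKM of mRNA and 2.40 and 0 FPKM of RPF. Zp3, an oocyte marker, had 1.13 and 0 FPKM of mRNA and 1.74 and 1.92 FPKM of RPF. The summed inner cell mass markers differed between the mRNA replicates (141 and 57.7 FPKM), and the part of this difference in the results was not tested. The steps between low RPF values gave totals of about 535180 and 485608 footprints counted on coding sequences, so the RPF of a gene often rested on few reads. Among the 39 genes with a coding length, the median was 41.0 and 44.0 footprints, the highest was 857 (Ncl, replicate 1), and the lowest was 8.00 (Rrp9, replicate 2). Of these, 8 had under 30 footprints in both replicates. The depth of the RNA-seq libraries is unknown.

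To ask how RPF and mRNA compare, the difference between RPF and mRNA was fitted on log2(FPKM+1) with limma over the 8327 genes with a mean of at least 1 FPKM in both assays, after each library was centred on its median over those genes. All 40 genes passed this filter. On this centred scale, 7 of the 40 genes were called higher in RPF (Gar1, Ncl, Fbl, Ubtf, Nop10, Rrs1 and Nip7) and 1 was called lower (Rrp9). A call required a log2 difference of 1 or more in either direction and a Benjamini-Hochberg adjusted p below 0.05. These are 17.5% and 2.5% of the genes, where 6.65% of all genes tested were called higher and 5.31% lower. The median difference was 0.12 for the 40 genes and -0.24 for all genes tested, and 21 of the 40 were above 0, against 41.7% of all genes tested. In 17 genes every pairing of an RPF with an mRNA library gave a difference above 0, where 28.8% of all genes tested did so. In 14 every pairing gave one below 0, where 38.7% of all genes tested did so, and in 9 the pairings disagreed in sign. Centring took out 1.5 on the log2 scale, the gap between the median levels of the assays, so every difference is relative to that gap. A difference of 0 is therefore not the ratio of the typical gene, for which the median was -0.24. Without RNA-seq replicate 1, or without RNA-seq replicate 2, the 8 called genes kept their direction. The difference of Gar1 was then 3.82 and 3.66, and that of Rrp9 was -1.44 and -1.89. In these fits the spread comes from the Ribo-seq libraries alone, so they cannot decide whether the calls hold. The assay and the way each library was made cannot be told apart, since mRNA was read by Smart-seq2 and RPFs by Ribo-lite, a low-input form of ribosome profiling.

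**Figure D2:**
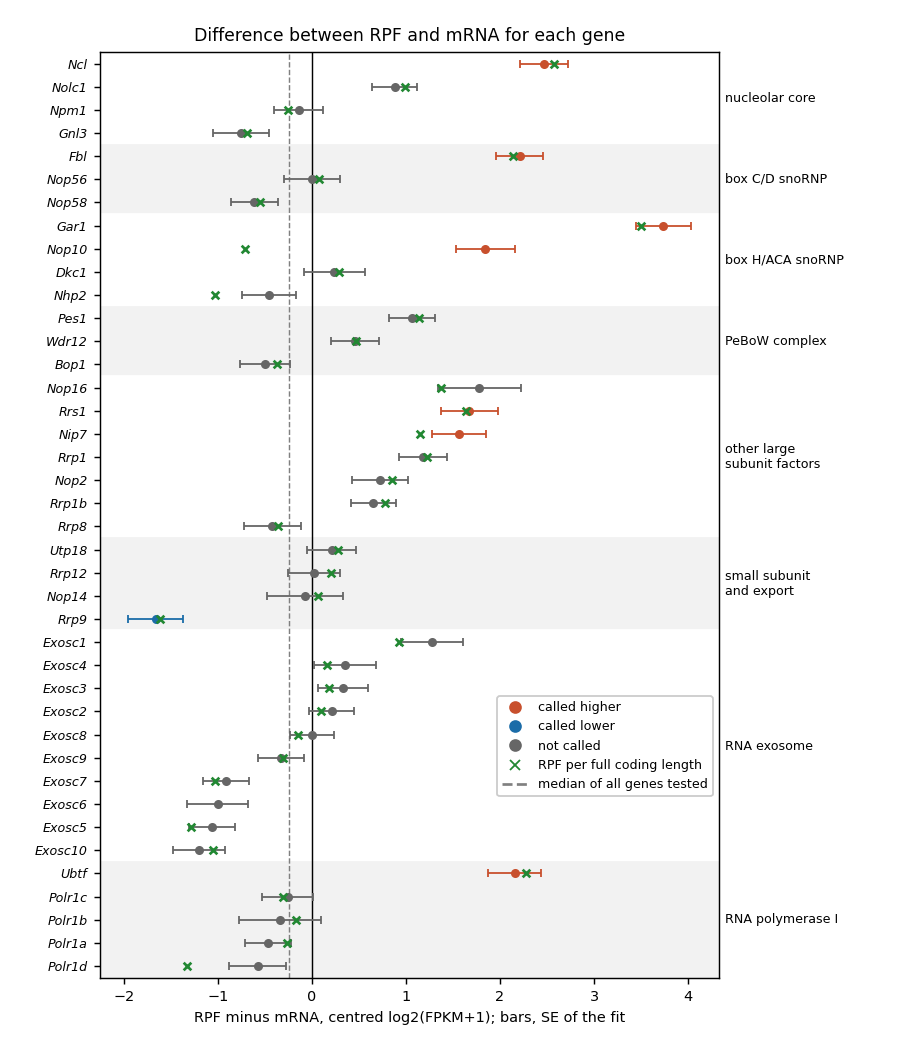
Difference between RPF and mRNA on the centred log2(FPKM+1) scale for each of the 40 genes, with the SE of the limma fit as bars; orange is called higher, blue called lower, grey not called, green crosses are the differences with RPF recomputed per full coding length, and the dashed line is the median of all genes tested (-0.24). Gar1 stands highest at 3.74, Rrp9 lowest at -1.66, and the cross of Nop10 lies below 0 at -0.71.

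Among the 4 core nucleolar proteins, nucleolin alone was called. Ncl, which encodes nucleolin, the major protein bound to nascent precursor rRNA (ENSMUSG00000026234.6, chromosome 1, 88241294 to 88256030, build NCBIM37), had 57.6 and 49.3 FPKM of mRNA and 834 and 865 FPKM of RPF. No mRNA value approached an RPF value, and the centred log2 difference was 2.47 (SE 0.25, adjusted p = 0.0243, limma). Nolc1, a chaperone of snoRNPs, had 17.9 and 19.0 FPKM of mRNA and 106 and 95.4 FPKM of RPF, with a difference of 0.88 (SE 0.24, adjusted p = 0.0839, limma) that missed the call. Npm1 had 2090 and 2429 FPKM of RPF, and its difference of -0.14 (SE 0.26, adjusted p = 0.720, limma) was less than its SE. Gnl3, which encodes the GTP-binding protein nucleostemin, was the lowest of the group, with 32.7 and 45.7 FPKM of mRNA, 72.7 and 59.0 FPKM of RPF, and a difference of -0.76 (SE 0.29, adjusted p = 0.155, limma). Thus the most abundant mRNA of the 40, Npm1, was near the typical ratio, whereas Ncl, with far less mRNA, was not.

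Npm1 values carry a limit of mapping. Of its coding windows of 28 bases, 85.7% occurred at more than 1 place in NCBIM37, with a median of 4 places and up to 10, and the printed window is one with the most. Reads with up to 20 places were kept by the authors, so reads of Npm1 and of its copies may be shared between them. The same share was 79.3% for Fbl, 39.4% for Nop56, 34.5% for Nop10, 32.1% for Rrs1, 13.8% for Ncl and 12.4% for Nip7. It was 1.94% for Gar1, 0.309% for Ubtf and 0 for Rrp9, and 17 of 39 genes had no such window. Windows were taken from spliced coding sequences and counted in the genome. A window across an exon junction is therefore not found at its own gene, and these shares may be too low. The authors mapped reads to the mm9 transcriptome, so places in the genome need not be places of mapping. How far shared reads moved the levels was not tested.

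The box C/D snoRNP methylates rRNA on the ribose. Its 3 proteins among the genes described here were unequal in mRNA and nearly equal in RPF. The spread given below covers only these 3. Fbl, the methyltransferase fibrillarin (ENSMUSG00000046865.5, chromosome 7, 28954765 to 28964288), had 21.1 and 24.7 FPKM of mRNA and 339 and 286 FPKM of RPF. Nop56, a scaffold protein, had 72.1 and 106 FPKM of mRNA and 257 and 241 FPKM of RPF. Nop58, its partner in the scaffold, had 125 and 107 FPKM of mRNA and 224 and 207 FPKM of RPF. Fbl was the lowest of the 3 in both mRNA replicates and the highest of the 3 in both RPF replicates. The SD of log2(FPKM+1) over the 3 proteins was 1.29 and 1.19 in mRNA and 0.31 and 0.23 in RPF. Fbl was called higher in RPF, with a difference of 2.21 (SE 0.25, adjusted p = 0.0268, limma). Nop58 was the lowest of the 3, at -0.62 (SE 0.25, adjusted p = 0.165, limma), and Nop56 lay at -0.002 with an SE of 0.30.

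In the box H/ACA snoRNP, which converts uridine to pseudouridine, levels were far apart in both assays. Dkc1, the pseudouridine synthase dyskerin, had 23.4 and 24.3 FPKM of mRNA and 67.3 and 99.7 FPKM of RPF. Nhp2, an RNA-binding partner, had 211 and 271 FPKM of mRNA and 569 and 431 FPKM of RPF. Gar1, the partner needed for turnover of the enzyme on its substrate (ENSMUSG00000028010.9, chromosome 3, 129527830 to 129534314), had 4.21 and 3.73 FPKM of mRNA and 163 and 213 FPKM of RPF. Gar1 thus had the lowest mRNA of the complex and more RPF than Dkc1 in both replicates. Its difference of 3.74 (SE 0.29, adjusted p = 0.0170, limma) was the highest of the 40 genes and exceeded that of 99.0% of the genes tested. It rested on 43.0 and 51.0 footprints. Nhp2 was the lowest of the complex, with a difference of -0.46 (SE 0.29, adjusted p = 0.314, limma), and Dkc1 had 0.24 (SE 0.33, adjusted p = 0.626, limma).

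Nop10 (ENSMUSG00000027133.3, chromosome 2, 112102083 to 112103426), which stabilises the H/ACA complex, had 359 and 332 FPKM of mRNA and the RPF levels of 2950 and 4180 FPKM given above. It was called higher, with a difference of 1.84 (SE 0.32, adjusted p = 0.0438, limma), but this call turned on the length by which RPF was divided. Low RPF values were whole footprints (within 0.1) for 83.0% and 82.6% of values when divided by a Cufflinks effective length, and for 36.2% and 37.2% when divided by the full coding length. The effective length of Nop10, whose coding sequence without the stop codon has 192 bases, was 27.3 bases. With 43.1 and 55.5 footprints over its full coding length, Nop10 had 420 and 595 FPKM of RPF. With mRNA left as deposited, the difference of Nop10 became -0.71 (SE 0.32, adjusted p = 0.185, limma). Its direction thus reversed. Polr1d and Nhp2, also short, moved to -1.33 (SE 0.31, adjusted p = 0.0588, limma) and -1.03 (SE 0.28, adjusted p = 0.0804, limma), respectively. Gar1, Ncl, Fbl, Ubtf, Rrs1 and Rrp9 kept their calls under the full coding length, with Gar1 at 3.50. Within the H/ACA complex, the SD of log2(FPKM+1) was 2.83 and 2.93 in mRNA, 2.36 and 2.32 in RPF as deposited, and 1.31 and 1.17 in RPF per full coding length.

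**Figure D3:**
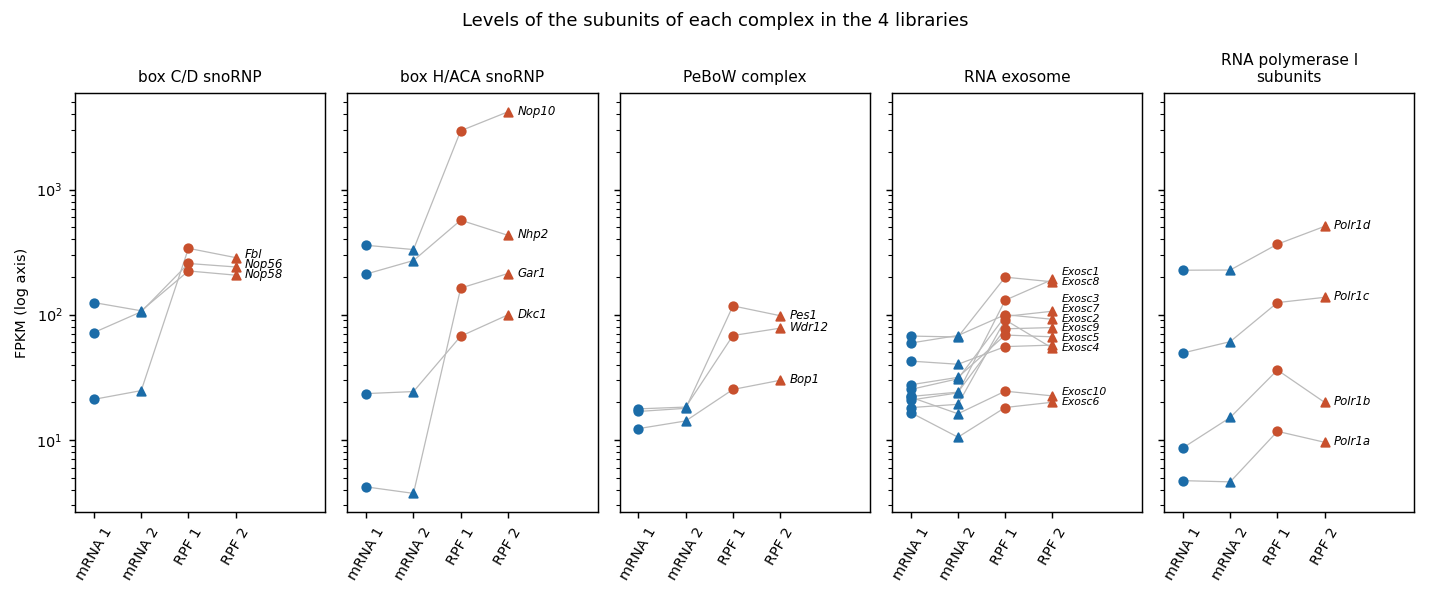
FPKM (log axis) in the 2 mRNA (blue) and 2 RPF (orange) libraries of those subunits of 5 complexes that are among the genes described here. Circles are replicate 1, triangles are replicate 2, and a line joins the values of one gene. The 3 box C/D proteins shown converge in RPF (SD of 0.31 and 0.23 on the log2 scale), whereas the 3 PeBoW proteins spread apart (SD of 1.10 and 0.89).

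The PeBoW complex, named for Pes1, Bop1 and Wdr12 and needed to process the rRNA of the large subunit, showed the reverse. Pes1 had 16.9 and 17.9 FPKM of mRNA and 118 and 98.2 FPKM of RPF. Bop1 had 12.3 and 14.2 FPKM of mRNA and 25.3 and 29.9 FPKM of RPF. Wdr12 had 17.7 and 18.3 FPKM of mRNA and 68.2 and 78.0 FPKM of RPF. The highest mRNA level was 1.44-fold and 1.29-fold the lowest in the replicates, with an SD of 0.27 and 0.19 on the log2 scale, and the RPFs had an SD of 1.10 and 0.89. None of the 3 was called. Pes1 was the highest, at 1.06 (SE 0.24, adjusted p = 0.0644, limma), and Bop1 the lowest, at -0.50 (SE 0.27, adjusted p = 0.255, limma). Of the coding windows, 48.0% in Pes1 and 43.1% in Wdr12 occurred at more than 1 place, and none did in Bop1.

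Of 7 other large subunit factors, Rrs1 and Nip7 were called higher and 6 had a difference above 0. Rrs1, which helps to bring the 5S RNP into the large subunit (ENSMUSG00000061024.7, chromosome 1, 9535489 to 9537535), had 7.80 and 5.32 FPKM of mRNA and 75.2 and 58.7 FPKM of RPF, a difference of 1.68 (SE 0.31, adjusted p = 0.0472, limma). Nip7, a precursor rRNA processing factor (ENSMUSG00000031917.5, chromosome 8, 109580777 to 109584826), had 27.9 and 29.97 FPKM of mRNA and 220 and 282 FPKM of RPF, a difference of 1.56 (SE 0.28, adjusted p = 0.0468, limma). The Nip7 call was lost per full coding length (1.15, adjusted p = 0.0660, limma), and both genes lay close to the threshold. Nop16, a large subunit assembly factor, had a larger difference, 1.78, but its mRNA replicates were far apart and its SE of 0.44 left it uncalled (adjusted p = 0.0728, limma). Rrp1, related to a yeast factor of the same name, had 40.1 and 33.8 FPKM of mRNA and 240 and 243 FPKM of RPF, a difference of 1.18 (SE 0.25, adjusted p = 0.0592, limma). Nop2, an rRNA cytosine methyltransferase, and Rrp1b had differences of 0.72 and 0.65. The lowest was Rrp8, the methyltransferase nucleomethylin, with 8.29 and 10.9 FPKM of mRNA, 25.5 and 17.6 FPKM of RPF, and a difference of -0.42 (SE 0.30, adjusted p = 0.370, limma).

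The small subunit factors held the one gene called lower. Rrp9, a protein of the U3 snoRNP that guides early cuts in the precursor (ENSMUSG00000041506.8, chromosome 9, 106378294 to 106387755), had 19.8 and 14.5 FPKM of mRNA and 16.8 and 13.5 FPKM of RPF. The assays overlapped in FPKM while the median gene tested was 1.26 higher in RPF on the uncentred log2 scale, and the centred difference was -1.66 (SE 0.29, adjusted p = 0.0452, limma). It rested on 11 and 8 footprints. The call ended with a pseudocount of 0.1 FPKM (adjusted p = 0.0611, limma), and the difference was 0.20 when no filter on low values was applied. The highest of the group was Utp18, a processome protein, with 17.9 and 16.2 FPKM of mRNA, 53.9 and 62.2 FPKM of RPF, and a difference of 0.21 (SE 0.26, adjusted p = 0.591, limma). Rrp12, which takes part in export of subunit precursors, and Nop14, a processome protein, had differences of 0.02 (SE 0.28) and -0.08 (SE 0.40), each less than its SE. The RPF replicates of Nop14, at 24.3 and 40.7 FPKM, differed by more than 2 SD of counting error, as did those of Npm1, Dkc1 and Polr1b among the 39 genes.

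None of the 10 exosome subunits was called, with 5 at an unadjusted p under 0.05, where 36.3% of all genes tested were. The differences nevertheless covered a range from -1.20 to 1.27. Exosc1, a cap protein, was the highest, with 20.8 and 23.7 FPKM of mRNA, 131 and 191 FPKM of RPF, and a difference of 1.27 (SE 0.33, adjusted p = 0.0780, limma). Exosc10, the nuclear exonuclease that docks on the ring, was the lowest, with 21.9 and 16.2 FPKM of mRNA, 24.5 and 22.5 FPKM of RPF, and a difference of -1.20 (SE 0.28, adjusted p = 0.0659, limma). The other cap proteins, Exosc2 and Exosc3, had differences of 0.21 and 0.33. In the ring of 6 proteins, the differences were 0.35 for Exosc4, -1.06 for Exosc5, -1.004 for Exosc6, -0.92 for Exosc7, -0.002 for Exosc8 and -0.33 for Exosc9. This division into cap and ring was made after the values were seen and was not tested. Exosc5 was called lower per full coding length, at -1.28 (SE 0.24, adjusted p = 0.0438, limma). The SD over the 10 subunits was 0.69 and 0.82 in mRNA, 1.03 and 1.07 in RPF as deposited, and 0.74 and 0.84 over the 9 with a coding length in RPF per full coding length.

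In the Pol I apparatus, the factor Ubtf was called and the 4 subunits among the genes described here were not. Ubtf, the upstream binding factor that keeps ribosomal DNA open for Pol I (ENSMUSG00000020923.10, chromosome 11, 102165874 to 102181056), had 7.23 and 8.79 FPKM of mRNA and 101 and 125 FPKM of RPF. Its difference was 2.16 (SE 0.28, adjusted p = 0.0308, limma) and rested on 113 and 127 footprints. All 4 subunits were below 0, as were 58.3% of all genes tested, and they lay from -0.26 (Polr1c) to -0.58 (Polr1d, SE 0.31, adjusted p = 0.247, limma). The subunits fell into the same order in all 4 libraries. Polr1d and Polr1c, which Pol I shares with Pol III, had 227 and 227 FPKM and 49.5 and 60.9 FPKM of mRNA. Polr1b and Polr1a, the large subunits that form the active site, had 8.63 and 15.1 FPKM and 4.72 and 4.62 FPKM of mRNA. In RPF, Polr1d had 366 and 508 FPKM, Polr1c 125 and 138 FPKM, and Polr1a 11.7 and 9.56 FPKM.

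Across the 40 genes, the order of the levels was partly shared between mRNA and RPF. Spearman's rho between the mean levels was 0.726 over the 40 genes and 0.809 over all genes tested; within replicates it was 0.685 and 0.722. These correlations are across genes, which share libraries and lengths and are not independent replicates, so no p is given. The rho between coding length and the difference was -0.169 over 38 genes as deposited, and 0.080 per full coding length. Over all genes tested with a coding sequence it was -0.115 and 0.092. For transcript length the rho over the 38 genes was 0.143 as deposited and 0.336 per full coding length. Over all genes tested it was 0.082 and 0.240.

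**Figure D4:**
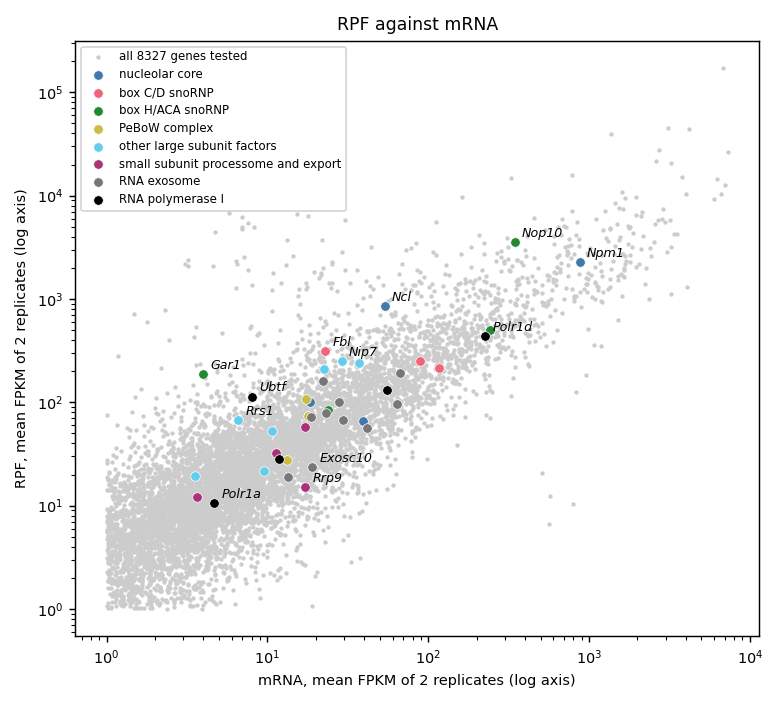
Mean RPF against mean mRNA of 2 replicates each, in FPKM on log axes; grey points are all 8327 genes tested and coloured points are the 40 genes by role. Gar1, Ubtf, Ncl and Fbl lie above the bulk of the grey points, and Rrp9 lies in the lower part of the cloud, with 10.3% of the genes tested below it in the difference between RPF and mRNA.

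Gar1, Ncl and Fbl, which had the 3 highest differences, also share the GGN stretches printed above. Gar1 and Fbl had 23 GGN codons among 30 and Ncl had 21; the next among the 38 genes with a complete coding sequence was Rrs1, with 12. Stretches of glycine and arginine codons of this kind encode the GAR domain known in nucleolar RNA-binding proteins. At least 21 such codons were found in 0.192% of 21341 genes, and at least 23 in 0.0844%. This feature was looked at after the differences were known. Of 9 other tested genes with at least 21, 5 were called higher and 8 were above 0, with a median of 1.52; over all genes tested, 6.65% were called higher and 41.7% were above 0. No test was made.

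Other genes of ribosome biogenesis, from a list of 123 further factors of which 121 were tested, had a smaller share called, and this difference was not tested. Called higher were 3 (Polr2l and Polr2k, small subunits common to the RNA polymerases, and C1d, an exosome cofactor), or 2.48%. Called lower were 2 (Fcf1, a processome nuclease, and Tex10, a large subunit factor), or 1.65%. The median difference was 0.11. Polr2l had 76.2 and 79.6 FPKM of mRNA and 3925 and 2296 FPKM of RPF, a difference of 3.75 (SE 0.34, adjusted p = 0.0223, limma). Its coding sequence has 204 bases, and per full coding length the difference was 1.34 (adjusted p = 0.0666, limma). The calls of Polr2k (0.36, adjusted p = 0.380, limma) and C1d (0.98, adjusted p = 0.0965, limma) were also lost per full coding length. Fcf1 had 233 and 247 FPKM of mRNA and 128 and 162 FPKM of RPF, a difference of -2.23 (SE 0.28, adjusted p = 0.0293, limma) that kept its call per full coding length. The genes of ribosomal proteins, the structural parts of the ribosome, had median differences of -0.76 (82 cytosolic genes) and -0.60 (78 mitochondrial genes). Of the cytosolic genes 10 were called higher (12.2%) and 24 lower (29.3%). Of the mitochondrial genes 2 were called higher (2.56%) and 8 lower (10.3%). The shares over all genes tested were 6.65% and 5.31%. These values are as deposited, and none per full coding length is given for ribosomal protein genes.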

How the data were processed

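RNA-seq and Ribo-seq of blastocysts were analysed, with 2 replicate libraries per assay. The authors deposited FPKM for each library. Per their methods and processing notes, RNA-seq reads were trimmed with Trim Galore 0.4.2, Ribo-seq reads were trimmed with cutadapt 1.14 and cleared of rRNA with Bowtie2 2.2.2, and both were mapped to the mm9 transcriptome with STAR 2.5.3a (up to 20 places per read); Cufflinks 2.2.1 then gave FPKM over transcripts (RNA-seq) or coding sequences (Ribo-seq).

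The rule for the 40 genes used no measured value, but the genes and all lists were chosen with earlier results of these data known. For repeated symbols the highest value was kept; 0 of the 40 were repeated. Levels were put on log2(FPKM+1), with a pseudocount of 1 FPKM. Each library was centred on its median over the 8327 genes with a mean of at least 1 FPKM in both assays. The difference between assays was fitted with limma 3.58.1 (R 4.3.3) without a replicate block and adjusted by the Benjamini-Hochberg method over all 8327 genes. A two-sided exact permutation test of 2 libraries against 2 cannot go below p = 0.333, so none is given. Tested on simulated data of 8327 genes for this comparison, the fit recovered 73.9% of genes changed by 3 on the log2 scale and 95.5% of those changed by 5. Low mean levels were raised in the simulation. Smaller changes, the size of every called difference except that of Gar1, were not simulated, so their recovery is unknown.

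Named with full statistics were genes called, and the highest and lowest difference of each role; other biogenesis genes only where called. Footprint totals were inferred from the steps between low Ribo-seq values, and footprint numbers cover counting error only. Cufflinks' effective length was computed with its default fragment length (mean 200, SD 80), and RPF per full coding length was added as an alternative after seeing the data. In that alternative only RPF was rescaled, and mRNA was left as deposited. Coordinates and coding sequences came from GENCODE M1 on NCBIM37. Exosc6 had no coding length there. Promoters came from RefSeq (GRCm38.p6), for 33 of the 40 genes. Protein sequences were not used here. Python 3.11.15, numpy 2.4.6, scipy 1.17.1, pandas 2.3.3, numba 0.67.0 and matplotlib 3.10.9 were used for the other steps.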

Additional observations from a re-analysis of the deposited data

How the results depend on the processing

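Each result was recomputed with a pseudocount of 0.1 FPKM, a filter of 5 FPKM, no filter, quantile normalization, centring on genes of at least 10 FPKM, an eBayes trend, summed repeated symbols, a replicate block, RPF per full coding length (added after seeing the data), and each library left out. The 8 called genes kept their direction under each setting in which they were tested (Gar1 did not pass the filter of 5 FPKM), except Rrp9 without a filter and Nop10 per full coding length. Their adjusted p-values (limma) ranged from 0.0170 to 0.0472 as reported and from 0.101 to 0.112 with the replicate block. With a pseudocount of 0.1 FPKM, Nop10, Rrs1, Nip7 and Rrp9 lost their calls (adjusted p of 0.0611 to 0.0684, limma). Rrs1 also lost its call with centring on genes of at least 10 FPKM (adjusted p = 0.0516, limma). Few footprints limit the RPF of Rrp9, Rrp8 and Exosc5 most, and the RNA-seq depth is unknown.

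Of the 40 genes, those called higher numbered 4 with a pseudocount of 0.1 (3.70% of all genes tested in that setting). They numbered 34 without a filter (25.7% of all genes), 11 with the trend (10.3%) and 0 with the replicate block. Those called lower numbered 0 with a pseudocount of 0.1 (1.85% of all genes) and 3 with a filter of 5 FPKM (14.8%). They numbered 0 without a filter (0.763%), 2 with quantile normalization (6.89%) and 3 with the trend (8.60%). The number was 0 with the replicate block and 2 per full coding length (8.11%). With the replicate block limma called 0 of 8327 genes, 2594 of which had an unadjusted p under 0.05, as did 15 of the 40. The study names no pairing of the libraries. The deviations of libraries numbered 1 had a correlation of 0.00994 over 8327 genes. With 2 libraries per assay, made by different methods, this value cannot decide whether libraries with the same number are paired. Fits with a library left out assume that the lone library of an assay varies like the other assay, so their calls are not given.

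Other biogenesis genes called higher numbered 1 with a pseudocount of 0.1, 8 with a filter of 5 FPKM, 96 without a filter, 7 with the trend, 0 with the replicate block and 0 to 14 with a library left out. As shares of those tested, in order from the pseudocount to the replicate block, these were 0.826%, 8.33%, 78.7%, 5.79% and 0%. Of all genes tested, 3.70%, 12.2%, 25.7%, 10.3% and 0% were called higher in that order. No share is given with a library left out, for the reason stated above. Other biogenesis genes called lower numbered 1, 7, 0, 6 and 0 in the same order of settings. The shares of all genes called lower were 1.85%, 14.8%, 0.763%, 8.60% and 0%. Other biogenesis genes called lower numbered 4 with centring on genes of at least 10 FPKM (6.45% of all genes) and 4 per full coding length (8.11%).

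The median difference of the 40 genes was 1.98 without a filter, where most genes lie near 0 FPKM and set the centre, and 0.012 to 0.23 with a library left out. Pearson's r of the log2 levels of mRNA and RPF was 0.792, and Spearman's rho was 0.682 to 0.740 with a library left out. The number of complexes with a narrower spread in both RPF replicates was 2 of 5 as reported and 2 to 3 with a library left out. Only subunits among the 40 genes entered this count.

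Without a filter, differences below 0 turned positive: 1.73 for Npm1, 1.11 for Gnl3, 1.86 for Nop56, 1.25 for Nop58, 1.41 for Nhp2, 1.37 for Bop1, 1.45 for Rrp8, 1.79 for Nop14, 0.20 for Rrp9, 0.80 for Exosc5, 0.86 for Exosc6, 0.95 for Exosc7, 1.86 for Exosc8, 1.54 for Exosc9, 0.67 for Exosc10, 1.40 for Polr1a, 1.53 for Polr1b, 1.61 for Polr1c and 1.29 for Polr1d. Per full coding length, Nop10 was -0.71, Nop56 0.077 and Nop14 0.066. Rrp12 was -0.062 with centring on genes of at least 10 FPKM. With a library left out, the sign changed for Nop56 (-0.26 to 0.26), Dkc1 (-0.10 to 0.51), Nop14 (-0.49 to 0.27), Rrp12 (-0.15 to 0.20), Exosc4 (-0.029 to 0.67), Exosc8 (-0.074 to 0.022) and Polr1b (-0.76 to 0.021); none of these was called as reported. Where no cause is named above, the cause was not tested.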

Other observations

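The motif CACGTG (the E-box bound by MYC and other factors, the same on both strands) was looked for in the 250 bases before the start of the 33 genes with a RefSeq promoter. It was present in 3 of the 33 (9.09%), against 6.86% of 27025 genes with a promoter. The windows around it are shown for these 3 genes, with the motif in capitals, in GRCm38.p6.

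Nop2 (chr6:125131811-125131840, plus strand): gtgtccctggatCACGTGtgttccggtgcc
Exosc5 (chr7:25659097-25659126, plus strand): taaacgctgagcCACGTGctagggccaact
Utp18 (chr11:93885769-93885798, minus strand): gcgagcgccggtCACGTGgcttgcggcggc

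A match is a description of these letters, and no data on binding were used. None of the 3 genes was called in the comparison of RPF with mRNA.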
